A study of Homo sapiens with 6 samples.

Results

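Absorptive cells are the cells of the intestinal lining that take up nutrients, salt and water: enterocytes in the small intestine and colonocytes in the colon. The genes described here are 10 markers of these cells, FABP1, SI, ALPI, SLC26A2, SLC26A3, AQP8, GUCA2A, MS4A12, LGALS4 and CDHR5, read from every probe set that the platform annotation assigns to 1 of these symbols alone. That gave 17 probe sets out of 41091 with a single symbol, and 10 genes out of 19775. They were read in RNA of DLD-1, a human colorectal adenocarcinoma cell line, on 6 Affymetrix arrays. There were 3 arrays of the subclone labelled DLD-1Δα-Cat and 3 of the one labelled DLD-1α-Cat, and both had been kept untreated for 96 h in three-dimensional collagen I gels (1 mg/ml). The labels leave Δα-Cat unexplained, do not say how many clones stand behind each name, and do not name separate cultures behind the 3 replicates, whose spread, the one that p-values measure here, may therefore be technical. CTNNA1, the αE-catenin gene that the names point to, stood at 11.38, 11.30 and 11.01 in DLD-1Δα-Cat and at 12.73, 12.74 and 12.79 in DLD-1α-Cat. These are values of its brightest probe set, 1 of 5, whose signal was thus lower but not lost in DLD-1Δα-Cat (difference -1.52, SE 0.119, limma adjusted p = 0.000838).

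In the intestine these genes come on as cells leave the crypt and move toward the surface. Brush border enzymes such as sucrase-isomaltase and intestinal alkaline phosphatase sit on microvilli, ion exchangers of the SLC26 family and the water channel aquaporin 8 carry salt and water, and guanylin is secreted onto the epithelium to regulate fluid secretion through the receptor GUCY2C. The transcription factors CDX1 and CDX2 are known to drive many absorptive genes, the sucrase-isomaltase gene among them. Colorectal cancers commonly lose part of this program.

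None of the 10 genes passed the test between DLD-1Δα-Cat and DLD-1α-Cat, against 5.52% of all 19775 genes tested (limma, Benjamini-Hochberg adjusted p under 0.05), that is 0 of 10 higher beside 3.84% of all genes and 0 of 10 lower beside 1.67%. At an unadjusted p under 0.05 the count was 1 of 10, CDHR5, beside 20.8% of all genes. Differences, given throughout as the log2 intensity of DLD-1Δα-Cat less that of DLD-1α-Cat, ran from -0.49 (LGALS4) to 0.20 (AQP8). They lay below 0 in 8 genes and above 0 in 2, with a median of -0.079 beside -0.030 over all genes. Adjusted p lay between 0.223 and 0.970 by limma. The 95% intervals of the differences came from the same fit, with each gene read by its brightest probe set. They lay inside a 2-fold change up or down for 9 of the 10 genes and inside 1.5-fold for 8. The exceptions were LGALS4, whose interval ran from -1.08 to 0.10, and, for the narrower limit, AQP8 (-0.27 to 0.66). In a fit over all probe sets, intervals of dimmer probe sets also reached beyond 1.5-fold. These belonged to SLC26A2 (-0.66 to 0.033), SLC26A3 (-0.67 to 0.13) and CDHR5 (-0.60 to 0.12). With the replicate number as a block the LGALS4 interval was -0.75 to -0.23, inside 2-fold.

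Most of the genes were also dim. An array intensity depends on the probe as well as on the RNA, so a rank among probe sets says only where a signal lies on the scale of these arrays, and no detection calls were used here. Of the 17 probe sets, 4 lay above the median of all 54613 probe sets (6.12 on the log2 scale), 1 each of SLC26A2, LGALS4, ALPI and CDHR5. The other 13 lay at or below it. By its brightest probe set SLC26A2 stood at percentile 82.2 and LGALS4 at percentile 72.7, whereas ALPI (58.4), CDHR5 (51.4), GUCA2A (49.3), AQP8 (42.1), FABP1 (31.1), SLC26A3 (21.7), MS4A12 (12.04) and SI (0.881) followed. By these probe sets SLC26A2 and LGALS4 were thus bright in both subclones, whereas the other markers gave signals in the middle or lower part of the scale. The 3 probe sets of SLC26A2 alone ranged from percentile 40.4 to 82.2, so a rank does not show whether a marker is expressed. Near the bottom of the scale a signal cannot be told from background, and a difference there understates any difference in RNA. Of all genes, 2.79% of those at or below that median were called and 7.07% of those above it.

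**Figure D1:**
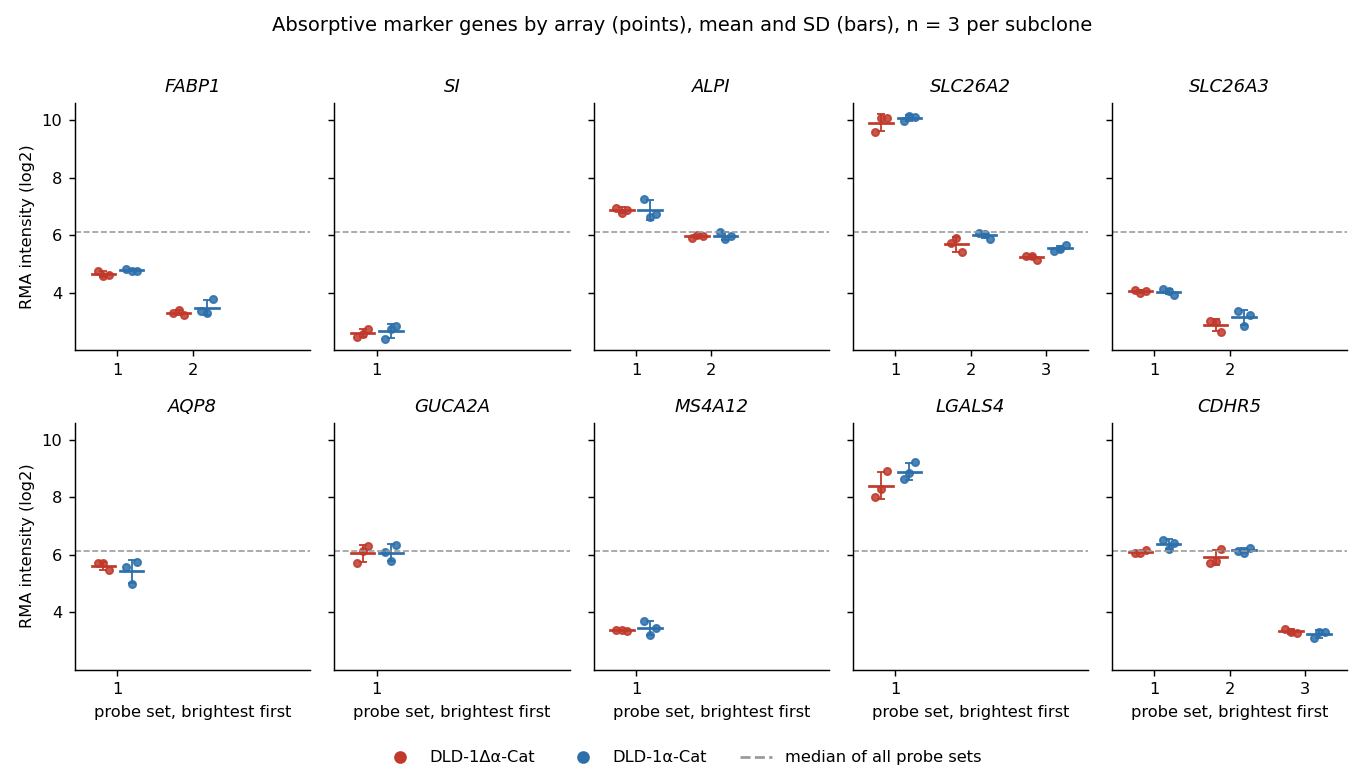
Log2 RMA intensity (y axis) of each probe set (x axis, brightest first) of the 10 genes, with 1 point per array, a bar for the mean and the SD (n = 3 per subclone) and a dashed line at the median of all probe sets, 6.12. LGALS4 and the brightest SLC26A2 probe set lie well above the line in both subclones, and the other SLC26A2 probe sets lie below it. SI, MS4A12 and SLC26A3 lie far below the line, and the points of the subclones overlap in all but 2 of the 17 probe sets.

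To set the signals beside the DNA near the starts of the genes, the 250 bases before the start that the RefSeq promoter table gives each gene (GRCh38.p14) were searched on both strands for TTTAT, a core of the CDX binding site. A window was available for 9 of the 10 genes, and CDHR5 was not matched. In 8 of the 9 the window abuts the span of the gene in the RefSeq gene table. The start used for SI instead lies inside that span (chr3:164978898-165090232), 11736 bases from its outer end, so the SI window is not the DNA just before the outermost start. The windows of the 3 genes with the lowest percentiles and the 2 with the highest are shown because they mark the ends of that range. Letters are given 5′ to 3′ on the gene's own strand, and capitals mark matches to it or to its reverse complement, ATAAA.
SI (chr3:165078497-165078746, minus strand): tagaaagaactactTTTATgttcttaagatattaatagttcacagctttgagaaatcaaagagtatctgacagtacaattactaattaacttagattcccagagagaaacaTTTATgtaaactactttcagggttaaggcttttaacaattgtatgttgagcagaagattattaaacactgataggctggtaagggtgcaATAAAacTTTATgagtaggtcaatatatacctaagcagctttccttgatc
MS4A12 (chr11:60492528-60492777, plus strand): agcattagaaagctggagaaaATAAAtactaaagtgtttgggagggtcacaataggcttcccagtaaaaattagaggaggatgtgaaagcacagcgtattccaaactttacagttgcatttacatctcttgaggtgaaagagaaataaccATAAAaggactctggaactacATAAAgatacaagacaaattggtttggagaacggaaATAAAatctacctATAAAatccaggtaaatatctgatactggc
SLC26A3 (chr7:107803224-107803473, minus strand): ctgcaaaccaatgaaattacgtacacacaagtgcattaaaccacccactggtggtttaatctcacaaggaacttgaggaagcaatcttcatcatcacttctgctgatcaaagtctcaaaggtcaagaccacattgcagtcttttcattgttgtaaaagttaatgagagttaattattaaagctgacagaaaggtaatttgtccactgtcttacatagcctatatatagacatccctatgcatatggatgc
SLC26A2 (chr5:149960508-149960757, plus strand): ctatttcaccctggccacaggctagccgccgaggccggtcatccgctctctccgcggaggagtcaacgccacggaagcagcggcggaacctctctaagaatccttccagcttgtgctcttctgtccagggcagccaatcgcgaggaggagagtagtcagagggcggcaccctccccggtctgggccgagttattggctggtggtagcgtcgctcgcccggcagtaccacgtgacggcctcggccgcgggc
LGALS4 (chr19:38812946-38813195, minus strand): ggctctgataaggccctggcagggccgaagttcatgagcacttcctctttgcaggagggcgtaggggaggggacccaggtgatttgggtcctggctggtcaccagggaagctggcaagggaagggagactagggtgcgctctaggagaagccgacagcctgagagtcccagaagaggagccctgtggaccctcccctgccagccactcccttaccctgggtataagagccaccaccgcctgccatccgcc

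The CDX core was found in 4 of the 9 windows, SI (4 matches), MS4A12 (5), FABP1 (3) and AQP8 (1), and in 33.7% of the 27303 windows of all genes in the table. In MS4A12 and FABP1, 1 match each lay inside the letters TATAAA of a TATA box. The windows of SLC26A3, SLC26A2 and LGALS4 held no match. These windows also differ in base composition: G and C made up 31.6% of the SI window, 36% of that of MS4A12, 37.6% of that of SLC26A3, 66% of that of SLC26A2 and 63.2% of that of LGALS4, with a median of 58% over all windows. The short AT-rich letters searched for are met more often in AT-rich DNA, so the matches are a description of these letters only.

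Among the genes of digestion and lipid uptake, FABP1 (chromosome 2) encodes the liver-type fatty acid-binding protein that carries fatty acids inside enterocytes. Its brighter probe set stood at 4.76, 4.59 and 4.62 in DLD-1Δα-Cat and at 4.83, 4.78 and 4.76 in DLD-1α-Cat. The arrays overlapped narrowly, and the difference was -0.13 (SE 0.0950, 95% interval -0.35 to 0.090, limma adjusted p = 0.467). Its dimmer probe set differed by -0.18 (limma adjusted p = 0.591 over all probe sets), with the highest value, 3.77, in replicate 3 of DLD-1α-Cat.

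SI (chromosome 3), sucrase-isomaltase, splits sucrose and starch fragments at the brush border. It lay lowest on the scale, at 2.46, 2.57 and 2.74 in DLD-1Δα-Cat and at 2.39, 2.76 and 2.86 in DLD-1α-Cat. The lowest and the highest value both belonged to DLD-1α-Cat, and the difference was -0.075 (SE 0.147, limma adjusted p = 0.800). ALPI (chromosome 2), the intestinal alkaline phosphatase that removes phosphate from luminal substrates, gave 6.97, 6.78 and 6.89 in DLD-1Δα-Cat and 7.29, 6.65 and 6.75 in DLD-1α-Cat. Again DLD-1α-Cat held both extremes, and replicate 1 of it set the larger SD of that group (0.343, against 0.0956 in DLD-1Δα-Cat). The difference was -0.015 (95% interval -0.42 to 0.39, limma adjusted p = 0.970), and the other probe set differed by -0.022. ALPI belongs to a cluster of closely related alkaline phosphatase genes, so its signal may include that of relatives. The placental gene ALPP stood at 9.71 ± 0.409 in DLD-1Δα-Cat and at 10.52 ± 0.722 in DLD-1α-Cat (SD, n = 3 each), a difference of -0.81 (limma adjusted p = 0.263). ALPP was named as such a relative after its value had been seen.

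SLC26A2 (chromosome 5), a sulfate transporter that is abundant in colonocytes, is also needed by cartilage. By its brightest probe set it stood at 9.60, 10.09 and 10.09 in DLD-1Δα-Cat and at 9.98, 10.16 and 10.12 in DLD-1α-Cat. Replicate 1 of DLD-1Δα-Cat was the low array, the other 5 lay close together, and the difference was -0.16 (SE 0.153, limma adjusted p = 0.597). Without replicate 1 of DLD-1Δα-Cat it was 0.0082 (limma adjusted p = 0.979), a turn of the sign. The dimmest of its 3 probe sets gave 5.28, 5.29 and 5.16 in DLD-1Δα-Cat and 5.47, 5.54 and 5.65 in DLD-1α-Cat. There the arrays did not overlap, all of DLD-1Δα-Cat being lower, and the difference was -0.31 (SE 0.106, limma adjusted p = 0.212 over all probe sets). The remaining probe set also differed by -0.31 (limma adjusted p = 0.362). The 3 probe sets thus agreed in sign and in not passing, at levels far apart.

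SLC26A3 (chromosome 7) is the chloride and bicarbonate exchanger of the colonic surface, known as DRA for down-regulated in adenoma. Its brighter probe set stood at 4.11, 4.01 and 4.06 in DLD-1Δα-Cat and at 4.14, 4.05 and 3.94 in DLD-1α-Cat. The values interleaved, and the difference of 0.012 (95% interval -0.21 to 0.24, limma adjusted p = 0.955) was smaller than the SD of either group (0.0497 and 0.0985). The dimmer probe set, at percentile 5.48, differed by -0.27 (limma adjusted p = 0.486), so the probe sets disagreed in sign and neither passed. AQP8 (chromosome 16), a water channel of surface colonocytes, gave 5.70, 5.70 and 5.47 in DLD-1Δα-Cat and 5.57, 4.98 and 5.74 in DLD-1α-Cat. Replicate 2 of DLD-1α-Cat was the low array. The difference was 0.20 (SE 0.199, limma adjusted p = 0.609), and -0.031 without that array.

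GUCA2A (chromosome 1) encodes guanylin, the peptide ligand of GUCY2C. It stood at 5.72, 6.13 and 6.31 in DLD-1Δα-Cat and at 6.11, 5.78 and 6.36 in DLD-1α-Cat, ranges that nearly coincide. The difference was -0.030 (95% interval -0.49 to 0.43, limma adjusted p = 0.945). Its receptor GUCY2C stood at 5.56 ± 0.281 in DLD-1Δα-Cat, against 5.88 ± 0.309 in DLD-1α-Cat (SD, n = 3 each; limma adjusted p = 0.391). The related peptide gene GUCA2B gave 4.08 ± 0.0804 in DLD-1Δα-Cat, against 4.45 ± 0.289 in DLD-1α-Cat (limma adjusted p = 0.227). Both were chosen for their place in this pathway after their values had been seen, and both lay below the median of all probe sets.

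MS4A12 (chromosome 11), a membrane protein found almost solely in colonocytes, gave 3.38, 3.39 and 3.36 in DLD-1Δα-Cat and 3.71, 3.23 and 3.44 in DLD-1α-Cat. The DLD-1Δα-Cat arrays lay between the extremes of DLD-1α-Cat, and the difference was -0.082 (SE 0.133, limma adjusted p = 0.758). LGALS4 (chromosome 19), galectin-4, is a lectin of the intestinal epithelium that takes part in apical sorting of glycoproteins. It showed the widest difference of the 10 genes, with 8.02, 8.28 and 8.93 in DLD-1Δα-Cat and 8.63, 8.84 and 9.22 in DLD-1α-Cat. The arrays of the subclones overlapped, since replicate 3 of DLD-1Δα-Cat lay above replicates 1 and 2 of DLD-1α-Cat. The difference was -0.49 (SE 0.251, 0.713-fold, limma adjusted p = 0.320). Same-numbered arrays differed by -0.61, -0.56 and -0.30, lower in DLD-1Δα-Cat in 3 of 3 pairs. With the replicate number as a block the interval narrowed to -0.75 to -0.23 and the limma adjusted p was 0.0580, still above the threshold.

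CDHR5 (chromosome 11) is a protocadherin that joins CDHR2 at the tips of microvilli to hold the brush border together. Its brightest probe set stood at 6.08, 6.08 and 6.15 in DLD-1Δα-Cat and at 6.53, 6.19 and 6.42 in DLD-1α-Cat. All arrays of DLD-1Δα-Cat lay below those of DLD-1α-Cat, the only such case at the level of genes, 1 of 10, where 13.1% of all genes had arrays that did not overlap in that direction. The difference was -0.28 (SE 0.114, 0.825-fold, 95% interval -0.54 to -0.011, limma adjusted p = 0.223). Its middle probe set differed by -0.24 (limma adjusted p = 0.492) and its dimmest, at percentile 10.04, by 0.093 (limma adjusted p = 0.730). Its partner CDHR2, named for that role after its value had been seen, stood at 5.30 ± 0.0951 in DLD-1Δα-Cat and at 5.51 ± 0.292 in DLD-1α-Cat (SD, n = 3 each; difference -0.22, limma adjusted p = 0.460).

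**Figure D2:**
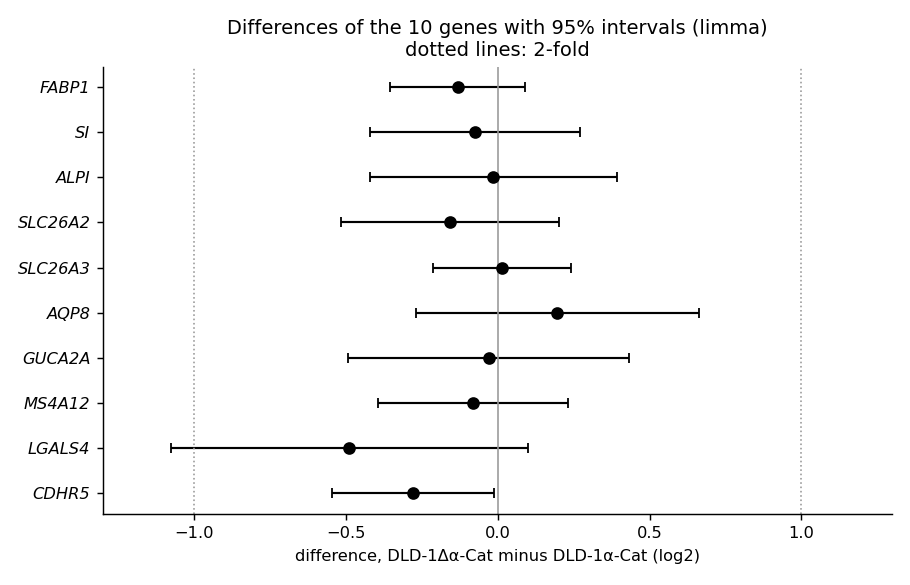
Difference in log2 intensity (x axis, DLD-1Δα-Cat minus DLD-1α-Cat) of the brightest probe set of each gene (y axis), with its 95% interval from limma, unadjusted for the number of genes, and dotted lines at 2-fold. All intervals but that of CDHR5, which ends at -0.011, include 0, and that of LGALS4 alone passes a dotted line. The intervals come from the fit without the replicate block. With that block the LGALS4 interval (-0.75 to -0.23) excluded 0.

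Counted over probe sets, each tested on its own among 54613, 0 of 17 passed (limma adjusted p from 0.212 to 0.978), beside 2.45% of all probe sets. At an unadjusted p under 0.05 the count was 1, beside 15.9% of all. Of the 17 differences 14 lay below 0 and 3 above it, with a median of -0.13, beside -0.041 over all probe sets. The subclones' arrays were fully apart in 2 of 17, the CDHR5 and SLC26A2 probe sets above, both lower in DLD-1Δα-Cat, where 11.7% of all probe sets did so. Probe sets of 1 gene share its RNA, so these counts are not of independent measurements.

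**Figure D3:**
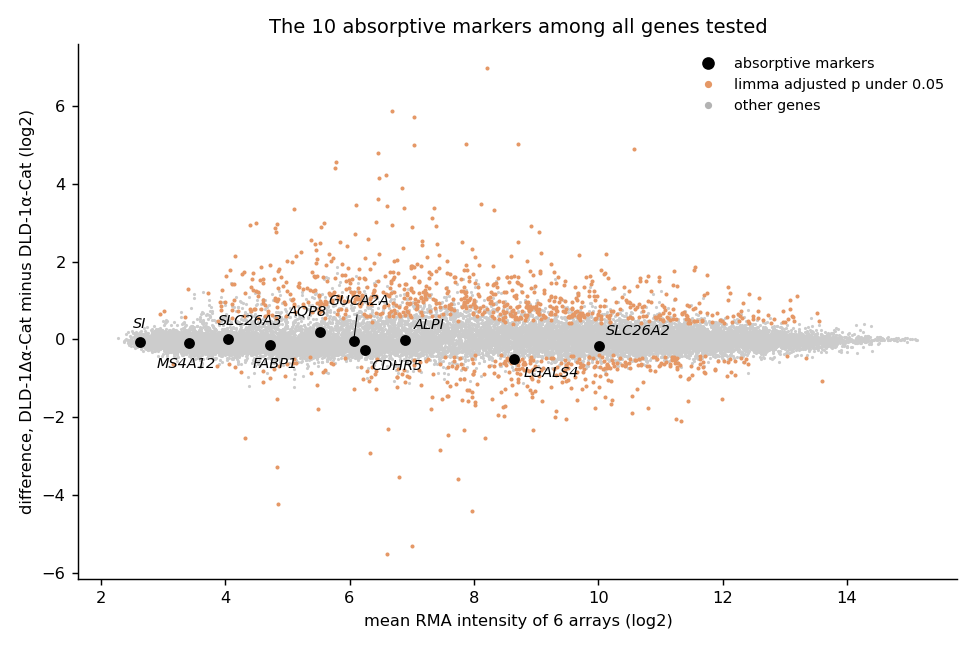
Difference in log2 intensity (y axis, DLD-1Δα-Cat minus DLD-1α-Cat) against the mean of the 6 arrays (x axis, log2) for all 19775 genes, with genes past the threshold in orange and the 10 absorptive markers in black. The markers lie between -0.49 and 0.20 at levels where other genes pass with larger differences.

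The surrounding absorptive program, read from 7 further lists of 132 different genes, held 11 genes that were higher and 5 that were lower in DLD-1Δα-Cat, 12.1% of them beside 5.52% of all genes tested. The lists were written with earlier results of these data known, so the larger share may come from the choice of genes and is no test of the program. Among 15 brush border hydrolases 2 rose and 1 fell. The glucosidase MGAM, which works beside SI on starch, rose (1.21, limma adjusted p = 0.0333), as did the aminopeptidase ENPEP (0.87, limma adjusted p = 0.0227), and the peptidase DPP4 fell (-1.60, limma adjusted p = 0.0105). With the replicate number as a block MGAM and ENPEP did not pass (limma adjusted p = 0.0547 and 0.0517). The dimmer ENPEP probe set differed by 0.22 (limma adjusted p = 0.598 over all probe sets). The median of the list was -0.034.

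Of 16 genes of lipid absorption 2 rose and 0 fell. MTTP, which loads lipid onto apolipoprotein B, was at 5.73 ± 0.482 in DLD-1Δα-Cat and at 3.97 ± 0.386 in DLD-1α-Cat (SD, n = 3 each; difference 1.76, limma adjusted p = 0.0139), and the lipid droplet protein CIDEC rose by 0.65 (limma adjusted p = 0.0129). Of 29 genes of ion, water and nutrient transport, 2 rose and 2 fell, with a list median of -0.043. The mineralocorticoid receptor NR3C2, which mediates the aldosterone response of the colon, rose by 1.96 (limma adjusted p = 0.000927) and the water and glycerol channel AQP3 by 0.60 (limma adjusted p = 0.0384). The carbonic anhydrase CA2 (-1.39, limma adjusted p = 0.00159) and the sodium-glucose cotransporter SLC5A1 (-1.01, limma adjusted p = 0.0166) fell.

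Neither of the 2 lists nearest to GUCA2A and CDHR5 held a called gene. Of 9 guanylin pathway genes 0 passed by limma (1 higher and 1 lower at an unadjusted p under 0.05), and PDE5A differed most among those brighter than the median tested gene, PDE5A being an enzyme that breaks down cGMP (0.53, limma adjusted p = 0.124). Of 23 genes of brush border structure 0 passed by limma (0 at an unadjusted p under 0.05). By the same rule the gene named is EPS8L3, a relative of the actin-capping protein EPS8 (0.26, limma adjusted p = 0.270). Their medians were -0.086 and 0.016. Here 18 of the 23 structural genes lay above the median of all probe sets, villin (VIL1) at 9.82 ± 0.151 in DLD-1Δα-Cat, against 10.02 ± 0.114 in DLD-1α-Cat (SD, n = 3 each) among them. VIL1 was named after its value had been seen.

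Among 25 further colonocyte markers 4 rose and 1 fell, with a list median of 0.16. KRT20, the keratin of mature surface cells, was at 13.02 ± 0.126 in DLD-1Δα-Cat and at 8.13 ± 0.288 in DLD-1α-Cat (SD, n = 3 each; difference 4.89, limma adjusted p = 1.49e-05). The adhesion molecule CEACAM6 (2.54, limma adjusted p = 0.0113) and MS4A8 (0.96, limma adjusted p = 0.0209), a relative of MS4A12, also rose, and CD177 fell (-0.97, limma adjusted p = 0.0183). SELENBP1, named to complete the count, rose by 0.78 (limma adjusted p = 0.0242). Of 19 transcription factors of absorptive differentiation, CDX1 fell (-1.09, limma adjusted p = 0.00117) and PPARG rose (0.54, limma adjusted p = 0.0387). CDX2, named after its value had been seen, stood at 10.99 ± 0.178 in DLD-1Δα-Cat and at 10.88 ± 0.201 in DLD-1α-Cat (SD, n = 3 each; limma adjusted p = 0.677). AQP3 passed in 1 and PPARG in 0 of the 6 fits made with an array left out, against 6 for KRT20, CDX1, CA2, NR3C2 and MTTP. The counts for the other called genes of these lists gave 2 (SELENBP1), 3 (MGAM, CIDEC, MS4A8 and CD177), 4 (ENPEP and SLC5A1) and 5 (DPP4 and CEACAM6). Without moderation of the variances, KRT20 and CDX1 alone among the called genes of these 7 lists still passed. Tested over all probe sets, no probe set of MGAM, AQP3 or PPARG passed.

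**Figure D4:**
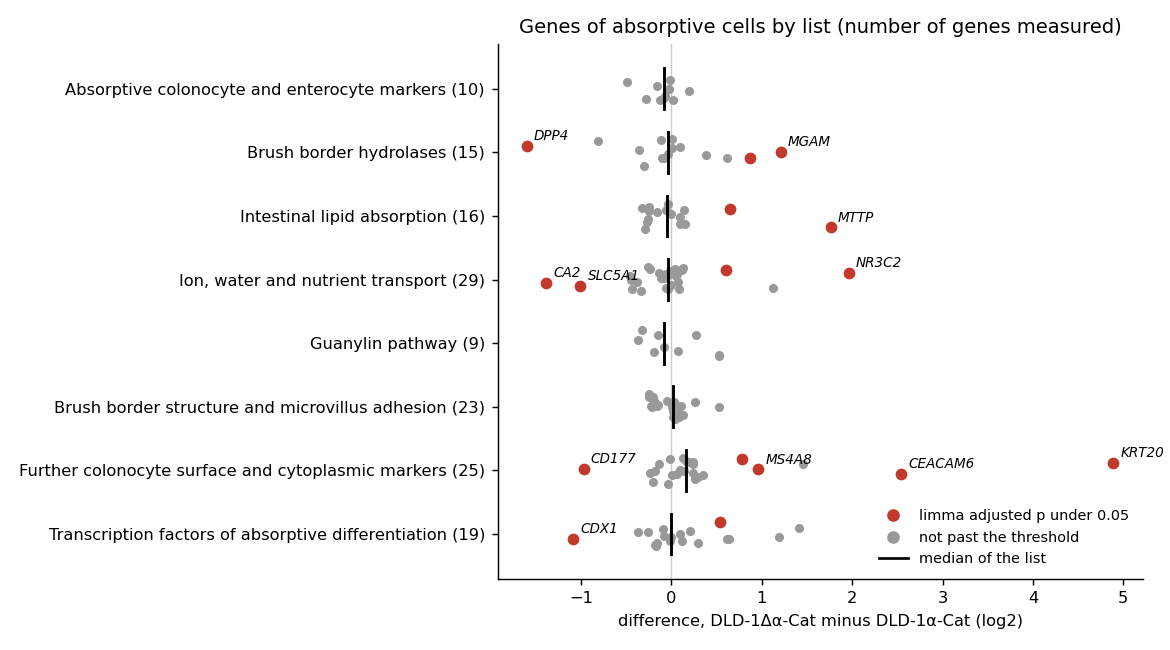
Difference in log2 intensity (x axis, DLD-1Δα-Cat minus DLD-1α-Cat) of each measured gene in the absorptive marker list and 7 further lists (y axis), with genes past the threshold in red and the median of a list as a black bar. The absorptive markers, the guanylin pathway and the brush border structure genes hold no red point, and KRT20 at 4.89 lies farthest from 0.

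Markers of other cell types were read in the same fit. Of 9 stem cell markers LGR5 fell (-2.83, limma adjusted p = 0.000888), and PROM1 (1.63, limma adjusted p = 0.00159) and ASCL2 (0.46, limma adjusted p = 0.0463) rose, though ASCL2 passed in 0 of the 6 fits that lacked an array. Of 9 goblet cell markers ZG16 fell (-0.97, limma adjusted p = 0.00785), and of 5 leukocyte markers CD14 fell (-1.17, limma adjusted p = 0.00517). None passed by limma among 9 enteroendocrine, 7 tuft, 9 fibroblast and 6 endothelial markers (at an unadjusted p under 0.05, 1, 2, 1 and 1). The mean of the fibroblast markers lay between 4.58 and 4.68 in DLD-1Δα-Cat and between 4.56 and 4.94 in DLD-1α-Cat, and that of the endothelial markers between 4.70 and 4.80 in DLD-1Δα-Cat and between 4.77 and 4.93 in DLD-1α-Cat. The mean of the leukocyte markers lay between 4.60 and 4.88 in DLD-1Δα-Cat and between 5.08 and 5.28 in DLD-1α-Cat. The log2 intensity of the 3′ control probe set of β-actin less that of its 5′ counterpart, a sign of RNA quality, averaged 5.20 in DLD-1Δα-Cat (SD 0.159) and 4.69 in DLD-1α-Cat (SD 0.291), with p = 0.1 by a two-sided exact permutation test, which cannot give less with 3 arrays a side. The arrays were fully apart, at 5.07 or more in DLD-1Δα-Cat and at 4.89 or less in DLD-1α-Cat. The same measure for GAPDH averaged 0.749 in DLD-1Δα-Cat (SD 0.0670) and 0.656 in DLD-1α-Cat (SD 0.144), with overlapping arrays and p = 0.4 by the same exact test. The part of these differences in the values above was not tested.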

How the data were processed

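The authors deposited log2 intensities of 54675 probe sets on 6 arrays. Per the submitters' processing notes these came from Expression Console (Affymetrix) by RMA, in unnamed versions. RMA corrects background, forces all arrays to the same distribution and combines the probes of a set, which hides any shift shared by all RNA. Medians of the arrays ranged from 6.12 to 6.15. Scanner output and detection calls were not used here.

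Groups and replicate numbers came from the sample titles. The 62 control probe sets were left out. Each gene was represented by its brightest single-symbol probe set. The 2016 platform annotation was matched to RefSeq (GRCh38.p14) by gene ID for 41037 of 41091 probe sets. Genes, and separately all 54613 probe sets, were tested in R 4.3.3 with limma 3.58.1 (default eBayes moderation, two-sided, Benjamini-Hochberg over all, threshold 0.05), with no filter on dim genes. In data simulated for 19775 genes and 3 against 3 arrays, 2%, 62%, 90% and 100% of changes of 0.5, 1, 2 and 4 on the log2 scale were recovered, and 4 of 131 calls were false. The number of arrays limits the precision.

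The genes, lists and rules were chosen with earlier results of these data known. From each further list the text names up to 4 called genes, from each cell type list up to 3, by size of difference, or, for further lists with no call, the most different gene above the median level of tested genes (7.82). Other genes named are said to be so. A rule to name genes with a similar pattern applied only to called markers and was not used. Some genes of the absorptive lists are not reported here. After each gene was centred on its group means, arrays 1, 2 and 3 of the subclones correlated with their namesakes at 0.225, 0.376 and 0.122 over genes, each over the limit of 0.1, so same-numbered arrays count as pairs on the strength of the data alone. The values in the text come from the fit without that block. The blocked value is given where it ended the call of a named gene, for LGALS4 and CDHR5, and for the counts over all genes. Alternatives were quantile normalization, centring, a filter on dim probe sets, the mean or the most variable probe set of a gene, a trended and robust variance, no moderation, array weights, the replicate number as a block and leaving out each array.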

Additional observations from a re-analysis of the deposited data

How the results depend on the processing

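None of the 10 absorptive markers and none of their 17 probe sets passed by limma in any of the 15 alternative settings in which they were tested, also counted over the 6 runs that each left out an array (lowest and highest 0 for higher and for lower). The filter on dim probe sets left 4 of the 10 genes. The smallest adjusted p of a marker over all settings was 0.0580, for LGALS4 in the paired fit with its replicate block, and 0.0916 for CDHR5 without replicate 2 of DLD-1α-Cat. The block changed no call among the 10 markers. With it the interval of CDHR5 was -0.54 to -0.018 (limma adjusted p = 0.169). Without an array LGALS4 differed by -0.75 to -0.29, CDHR5 by -0.37 to -0.20 and FABP1 by -0.19 to -0.098, always below 0. The other markers crossed 0, and in none did a value pass: ALPI -0.14 to 0.18, AQP8 -0.031 to 0.35, GUCA2A -0.18 to 0.14, MS4A12 -0.20 to 0.042, SI -0.21 to 0.019, SLC26A2 -0.24 to 0.0082 and SLC26A3 -0.038 to 0.060. SLC26A3 was -0.13 by the mean of its probe sets and -0.27 by the most variable, and ALPI was 0.055 with array weights.

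Over all genes, the 760 higher and 331 lower calls became 1150 and 564 with a trended and robust variance and 67 and 48 without moderation. With array weights 1073 were higher and 549 lower, and with the replicate block 1012 were higher and 449 lower. Without an array there were 323 to 854 higher and 116 to 348 lower. The cause was not tested. With 3 arrays a subclone, a change of 0.5 on the log2 scale was rarely recovered in simulated data (2%). Those data gave 131 calls, against 1091 in the real fit, so the unadjusted p needed for a call was stricter there. The 2% may therefore understate how often such a change would be called here. The smallest difference called among all genes was 0.39. For probe sets near the bottom of the scale no level can be told from background.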
